A study of Homo sapiens with 4 samples.

Results

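Nuclear receptors are transcription factors that read small lipid-soluble molecules. A typical member binds DNA through a pair of zinc fingers and holds a ligand such as a bile acid, an oxysterol, a retinoid, a steroid or a fatty acid in a pocket that sets whether coactivators or corepressors dock on it. Many of the liver's members pair with a retinoid X receptor (RXR) and control bile acid, lipid, glucose and drug metabolism, while the orphan members have no settled ligand. Here 43 genes of this superfamily, listed by name and family, were followed in 2 established human hepatocellular carcinoma (HCC) cell lines, Huh1 and Huh7. Of these, 42 were found among the 18398 genes with values, and NR2E3 was not analysed here.

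Each cell line received either the negative control siRNA (NCsiRNA) or an siRNA against CDCA8 (CDCA8siRNA), which encodes a subunit of the chromosomal passenger complex that guides chromosome segregation. Total RNA was taken 48 h after transfection at 15 nM and sequenced, with a single library per line and siRNA and 4 in all. They rested on an estimated 12197606 to 13384836 reads. The values were taken as RPKM (read numbers scaled by transcript length and library depth), which allows levels of different genes to be compared. Each line is a single long-established tumor line and each condition a single library, so no spread between cultures could be measured. CDCA8 itself stood at 24.1 RPKM with NCsiRNA and 5.86 RPKM with CDCA8siRNA in Huh1, and at 51.5 and 7.36 RPKM in Huh7, so that 24.3% and 14.3% of the control level remained. Among defining markers of hepatocytes, ALB lay between 721 and 3447 RPKM in all 4 libraries and SERPINA1 between 160 and 538 RPKM. The endothelial marker VWF was at or near 0 (at most 0.00923 RPKM), as was the T cell marker CD3E (at most 0.162 RPKM), whereas the collagen gene COL1A1 stood at 107 and 125 RPKM in Huh7 against 0.115 and 0.122 RPKM in Huh1.

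Most nuclear receptor genes that serve liver metabolism were expressed in these cells, and most steroid receptor genes were not. Counting a gene as expressed when any library reached 1 RPKM, 30 of the 42 genes (71.4%) were expressed, against 66.0% of all genes, and 26 reached that level in all 4 libraries. The 30 comprised 9 of the 10 lipid, bile acid and xenobiotic receptors, 7 of the 8 retinoid, thyroid hormone and RXR genes, 9 of the 12 orphan and estrogen-related receptors, 2 of the 4 clock receptors, 2 of the 3 NR4A receptors and 1 of the 5 steroid receptors. The other 12 genes stayed below 1 RPKM everywhere, with the highest value, 0.709 RPKM, belonging to the mineralocorticoid receptor gene NR3C2 in Huh1 with NCsiRNA. They included the estrogen receptor genes ESR1 (at most 0.0330 RPKM) and ESR2 (at most 0.0685 RPKM), the progesterone receptor gene PGR (at most 0.0199 RPKM), and the vitamin D receptor gene VDR (0.0928 to 0.281 RPKM). RORA and RORB, which oppose the REV-ERB repressors in the circadian clock, reached at most 0.385 and 0.00631 RPKM. RXRG, ESRRB, ESRRG, NR5A1 and NR4A3 completed the silent or nearly silent group, the last with 0.0728 to 0.188 RPKM.

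With NCsiRNA, the most abundant nuclear receptor transcript differed between the lines. In Huh1 it was NR1H4, which encodes the bile acid receptor FXR, at 41.9 RPKM, a level above that of 90.2% of all genes. Behind it came NR1H2, which encodes the oxysterol receptor LXRβ, at 28.2 RPKM, NR2F6, a COUP-family orphan repressor, at 25.5 RPKM, and ESRRA, a regulator of mitochondrial genes, at 24.7 RPKM. In Huh7 NR2F6 ranked highest at 41.7 RPKM, followed by NR5A2, an orphan activator of bile acid synthesis genes known as liver receptor homolog, at 21.4 RPKM, and PPARG, the fatty acid and thiazolidinedione receptor of adipocytes, at 18.8 RPKM. With 1 library per condition, the order of neighbours with close values, such as NR2F6 and ESRRA in Huh1, could not be set against any spread between cultures.

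**Figure D1:**
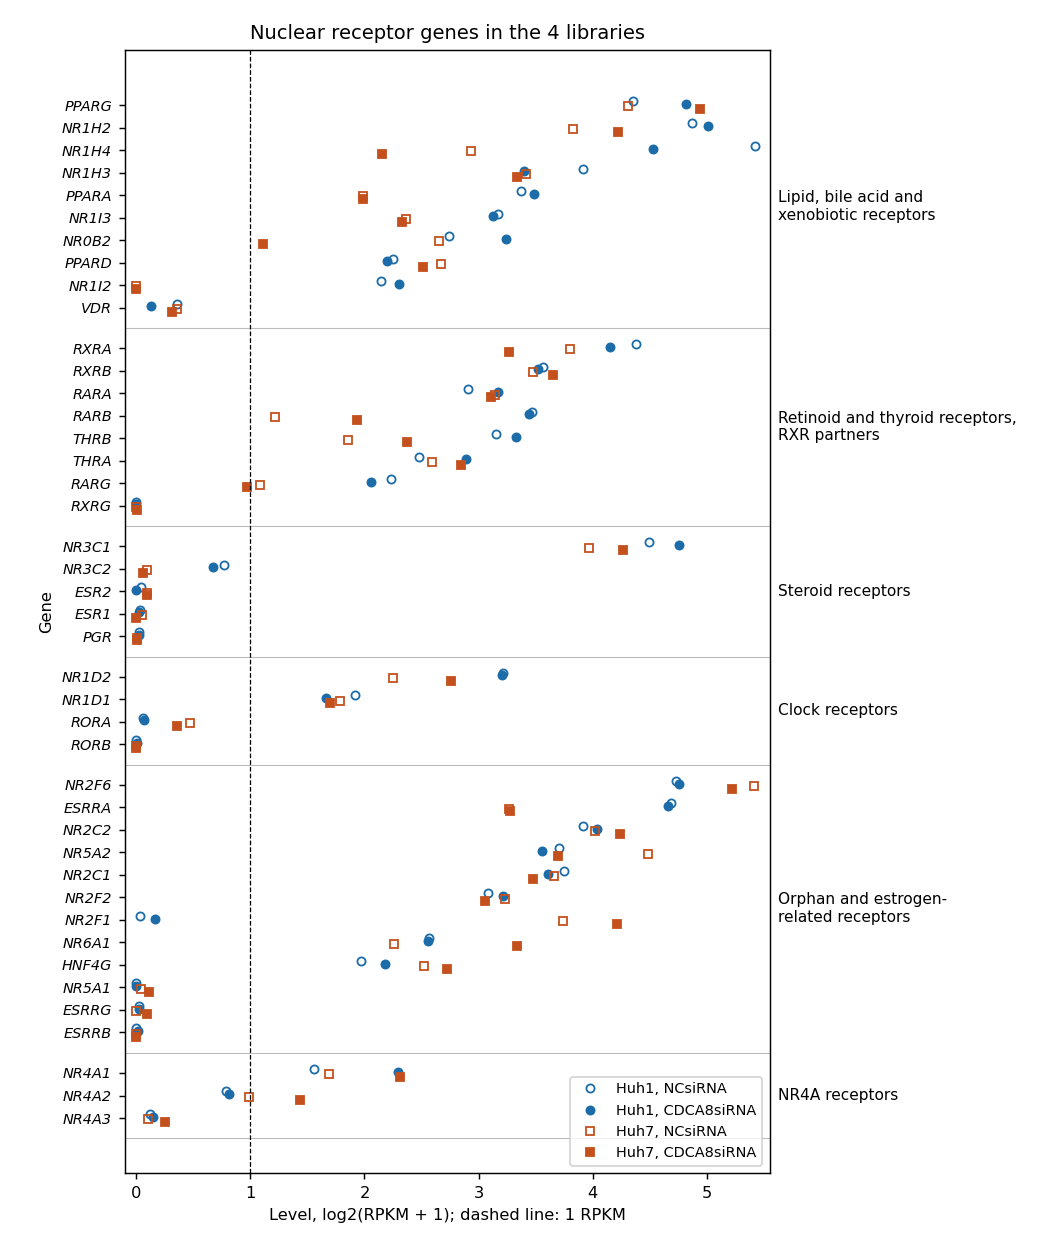
Levels of the 42 nuclear receptor genes, grouped by role, as log2(RPKM + 1) on the horizontal axis, with 1 point per library (circles Huh1, squares Huh7, open NCsiRNA, filled CDCA8siRNA) and a dashed line at 1 RPKM. The 12 genes left of the line in every library include 4 of the 5 steroid receptors, NR1H4 spans 3.44 to 41.9 RPKM, and NR2F1 lies at or below 0.121 RPKM in Huh1 and at or above 12.3 RPKM in Huh7.

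Promoter sequences from RefSeq (GRCh38.p14, 250 bases before to 50 bases after a transcription start) were matched to 37 of the 42 genes. At each gene, the start nearest to that of the measured transcript in GENCODE release 29 was taken. This start lay 1848 bases away for NR2F2 and 13687 bases away for NR4A1, so these windows may not cover the promoter of the measured RNA. The letters searched, on both strands, were AGGTCA, the half-site that many nuclear receptors bind, TCAAGGTCA, the extended half-site of monomeric orphan receptors, which itself contains AGGTCA, TGACGTCA, the cAMP response element, and CACGTG, the E-box of clock factors. AGGTCA was present in 6 of the 37 promoters (16.2%), those of ESR2, NR1H4, NR5A2, PPARG, RARA and RXRG, against 13.8% of all 35116 promoters in the collection. TCAAGGTCA was in 0 of the 37 against 0.353% of all, and CACGTG in 3 of the 37 (8.11%), those of NR2C1, NR2F2 and NR5A1, against 7.26% of all. TGACGTCA occurred only in that of NR6A1 (2.70%), against 1.85% of all. These shares lay near those of all promoters, and a match is a description of letters and not of a bound site.

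Shown here are 4 promoters with a searched motif, because their genes were among those whose RNA level differed most between CDCA8siRNA and NCsiRNA. Capitals mark the motif, and each sequence is written 5′ to 3′ on the strand of its gene.
NR1H4, chr12:100503110-100503409, plus strand: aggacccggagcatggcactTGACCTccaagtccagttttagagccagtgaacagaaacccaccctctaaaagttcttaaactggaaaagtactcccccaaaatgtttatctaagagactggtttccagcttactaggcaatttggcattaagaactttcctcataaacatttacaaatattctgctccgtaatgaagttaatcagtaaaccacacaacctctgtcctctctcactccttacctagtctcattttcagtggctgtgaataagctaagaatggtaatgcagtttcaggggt
PPARG, chr3:12287118-12287417, plus strand: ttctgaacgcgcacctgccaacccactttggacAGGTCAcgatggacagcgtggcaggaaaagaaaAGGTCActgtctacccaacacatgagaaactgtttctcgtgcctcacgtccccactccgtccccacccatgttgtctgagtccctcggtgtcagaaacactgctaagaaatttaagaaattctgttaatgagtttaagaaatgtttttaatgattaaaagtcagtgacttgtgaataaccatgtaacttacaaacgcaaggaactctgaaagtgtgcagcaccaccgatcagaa
NR5A2, chr1:200027460-200027759, plus strand: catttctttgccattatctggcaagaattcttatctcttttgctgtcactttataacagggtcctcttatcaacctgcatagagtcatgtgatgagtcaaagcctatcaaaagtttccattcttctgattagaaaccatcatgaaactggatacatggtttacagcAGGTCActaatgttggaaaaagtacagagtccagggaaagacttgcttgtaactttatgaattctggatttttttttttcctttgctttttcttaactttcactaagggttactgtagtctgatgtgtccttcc
NR6A1, chr9:124771262-124771561, minus strand: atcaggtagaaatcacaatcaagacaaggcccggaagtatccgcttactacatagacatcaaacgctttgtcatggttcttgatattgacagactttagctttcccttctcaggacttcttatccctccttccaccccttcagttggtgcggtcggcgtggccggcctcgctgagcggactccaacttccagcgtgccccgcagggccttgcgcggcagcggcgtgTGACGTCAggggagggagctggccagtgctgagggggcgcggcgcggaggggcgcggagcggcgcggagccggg
The half-site of NR1H4 lies on the opposite strand at bases 21 to 26 and so reads TGACCT, and this start, the single one of the gene in the collection, is 29652 bases from that of the measured transcript. PPARG holds 2 half-sites, at bases 34 to 39 and 67 to 72, around a start 533 bases from that of the measured transcript. NR5A2 holds its half-site at bases 167 to 172. In NR6A1 the cAMP response element fills bases 227 to 234, with its first base 24 bases before the start.

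The question of the knockdown comparison was which of these genes differed between CDCA8siRNA and NCsiRNA. The paper used a single siRNA sequence against CDCA8 for its RNA sequencing. Effects of that sequence on other RNAs cannot be told apart from those of losing CDCA8. Across both lines, CDCA8siRNA was accompanied by a lower level of the FXR gene NR1H4 and by higher levels of PPARG and of the immediate-early gene NR4A1. NR1H4 stood at 41.9 RPKM with NCsiRNA and 22.1 RPKM with CDCA8siRNA in Huh1, and at 6.65 and 3.44 RPKM in Huh7. CDCA8siRNA thus left 52.7% of the control level in Huh1 and 51.7% in Huh7. The estimated reads behind these values were 1618 and 840 for Huh1, and 234 and 122 for Huh7. In each line the CDCA8siRNA library was the lower of the pair, although Huh1 with CDCA8siRNA still lay above both Huh7 libraries. PPARG stood at 19.4 and 27.1 RPKM in Huh1 and at 18.8 and 29.7 RPKM in Huh7, so that both CDCA8siRNA libraries lay above both NCsiRNA libraries. NR4A1, an orphan receptor that growth factors and stress induce rapidly, stood at 1.95 and 3.90 RPKM in Huh1 and at 2.23 and 3.96 RPKM in Huh7, again without overlap between the siRNAs. In bulk RNA, fewer cells carrying a transcript and less RNA per cell cannot be told apart.

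A test was possible only by letting the lines stand in for repeats. limma was fitted to log2(RPKM + 1) in all 4 libraries, with cell line as a further factor and 1 degree of freedom for the residual, and tested whether the mean change over both lines differed from 0. On simulated data more of its calls were false than the adjusted p allows. Of the 30 expressed nuclear receptor genes, 27 reached 1 RPKM in a library of each line and entered this test. NR1H4 fell by 0.84 on the log2 scale (SE 0.105, limma adjusted p = 0.00251). PPARG rose by 0.55 (SE 0.0997, limma adjusted p = 0.0117), and NR4A1 rose by 0.67 (SE 0.133, limma adjusted p = 0.0164). These 3 of 27 compare with 10.2% of all 10357 genes tested, namely 6.03% higher and 4.21% lower, a share near that of the receptor genes. Their median log2 fold change was 0.06, against 0.03 for all genes. All 3 calls were lost when genes of low level were kept in the fit (limma adjusted p = 0.445 for each) and when the cell line was left out of it (limma adjusted p = 1.00 for each). Under either setting limma called 0 genes of any kind, with 2050 and 89 genes at an unadjusted p under 0.05.

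Next in line were RXRA, the shared dimer partner, NR5A2 and NR3C1, which did not pass the test. RXRA stood at 19.8 and 16.8 RPKM in Huh1 and at 13.0 and 8.60 RPKM in Huh7, with NCsiRNA and CDCA8siRNA respectively (log2 fold change -0.38, SE 0.114, limma adjusted p = 0.0646). NR5A2 stood at 12.03 and 10.8 RPKM in Huh1 and at 21.4 and 11.9 RPKM in Huh7 (log2 fold change -0.47, SE 0.147, limma adjusted p = 0.0782). NR3C1, the glucocorticoid receptor gene, stood at 21.5 and 26.1 RPKM in Huh1 and at 14.6 and 18.3 RPKM in Huh7 (log2 fold change 0.29, SE 0.0979, limma adjusted p = 0.101). The libraries with CDCA8siRNA were the lower of the pair in both lines for RXRA and NR5A2 and the higher for NR3C1. After quantile normalization RXRA, NR5A2 and NR6A1 had limma adjusted p values of 0.0114, 0.00596 and 0.0392.

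Most of the hepatocyte markers looked at were also lower with CDCA8siRNA. Of 8 such markers, 7 were lower with CDCA8siRNA in Huh1 and 7 in Huh7, 6 of them in both lines. Of all genes, 4915 of 10940 were lower in Huh1, 5257 of 11565 in Huh7 and 30.5% of 10357 in both lines. ALB alone made up 3447 and 2684 RPKM of the sums in Huh1 that follow, and 1166 and 721 RPKM of those in Huh7. Their summed level was 5129 RPKM with NCsiRNA and 3945 RPKM with CDCA8siRNA in Huh1, and 3253 and 2282 RPKM in Huh7, with AFP higher in Huh1 and TTR higher in Huh7. The summed level of the bile duct markers KRT7 and KRT19 was 96.4 and 102 RPKM in Huh1 and 111 and 113 RPKM in Huh7. KRT7 made up most of it in Huh1 (84.4 and 81.7 RPKM, against 0.660 and 0.572 RPKM in Huh7), and KRT19 stood at 12.04 and 20.5 RPKM in Huh1, higher with CDCA8siRNA, and at 110.5 and 112 RPKM in Huh7. The leukocyte markers summed to 23.3 and 16.5 RPKM in Huh1 and to 3.84 and 4.31 RPKM in Huh7, nearly all of it CD68, with PTPRC at most 0.417 RPKM. The part that these markers had in the NR1H4 difference was not tested.

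Within each line few receptor genes differed by 2-fold. In Huh1, 28 of them reached 1 RPKM in either library, and 0 differed by 2-fold on the log2(RPKM + 1) scale, where 0.494% of all 10940 genes did so (0.32% higher, 0.174% lower). Of the 28, 14 were higher and 14 lower with CDCA8siRNA, with a median log2 fold change of 0.01 against 0.02 for all genes. In Huh7, 29 entered, of which NR6A1 was at least 2-fold higher, where 0.873% of all 11565 genes were, and NR0B2 at least 2-fold lower, where 0.7% of all genes were (1.57% in either direction). There 16 were higher and 13 lower, with a median of 0.01 against 0.03 for all genes. The median size of the difference regardless of sign was 0.15 in Huh1 and 0.26 in Huh7, against 0.14 and 0.19 for all genes. Of the 27 genes measured in both lines, 9 were higher with CDCA8siRNA in both (39% of all genes), 9 lower in both (30.5%) and 9 in opposite directions (30.6%).

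**Figure D2:**
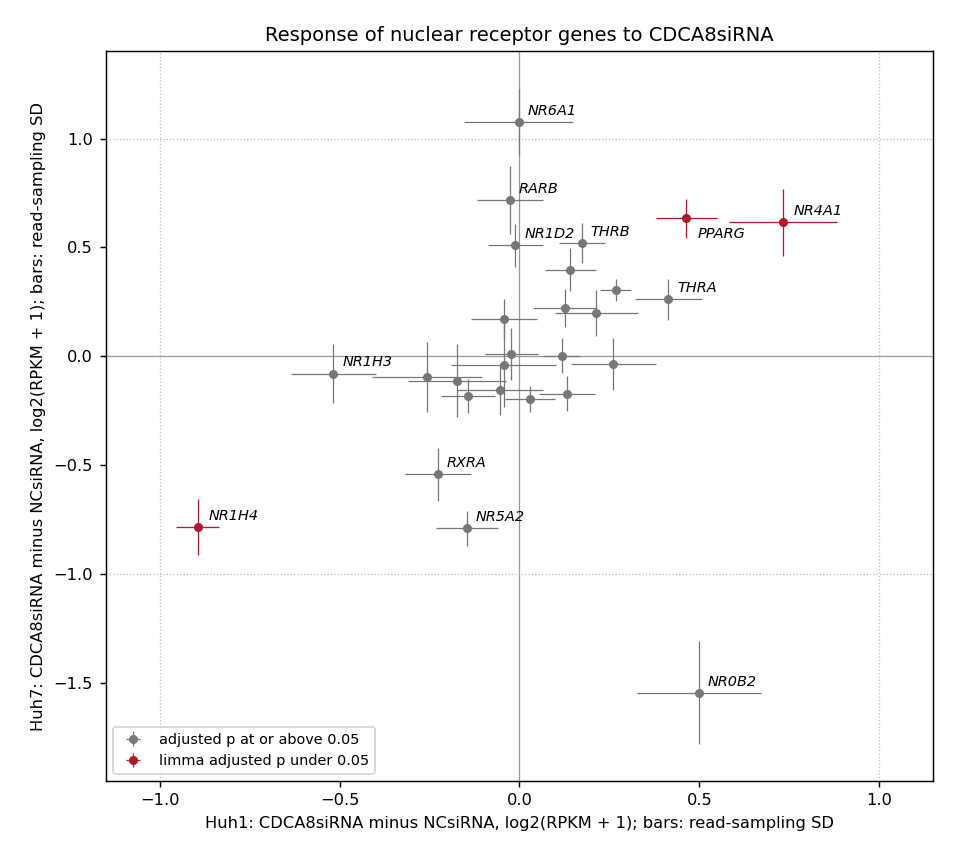
Difference in log2(RPKM + 1) between CDCA8siRNA and NCsiRNA in Huh1 (horizontal) and Huh7 (vertical) for the 27 nuclear receptor genes measured in both lines, 1 point per gene, with bars for the SD that read sampling gives (no replicate error) and dotted lines at 2-fold. NR1H4 lies low and PPARG and NR4A1 high in both lines (red, limma adjusted p under 0.05), whereas NR0B2 (0.50 in Huh1, -1.55 in Huh7) and NR6A1 (1.08 in Huh7, level in Huh1) lie far from the diagonal.

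The largest response in Huh7 was that of NR0B2, which encodes SHP, a receptor without a DNA-binding domain that FXR induces and that represses bile acid synthesis. NR0B2 stood at 5.70 RPKM with NCsiRNA and 8.47 RPKM with CDCA8siRNA in Huh1, and at 5.29 and 1.155 RPKM in Huh7. The lines thus started at similar levels and parted, to 1.49-fold of the control in Huh1 and 21.8% of it in Huh7. The Huh7 value with CDCA8siRNA rests on an estimated 16.4 reads, against 74.6 with NCsiRNA. The log2 difference between Huh7 and Huh1 in response was -2.04, with an SD from read sampling alone of 0.294, and was not tested against replicates. NR1H4 itself was lower by nearly the same factor in both lines, and its part in the NR0B2 difference was not tested.

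NR6A1, a germ cell nuclear factor that represses pluripotency genes, stood at 4.91 and 4.90 RPKM in Huh1 and at 3.78 and 9.08 RPKM in Huh7, 2.40-fold higher in the latter. RARB, the retinoic acid receptor that is itself a retinoid target, stood at 10.04 and 9.84 RPKM in Huh1 and at 1.32 and 2.81 RPKM in Huh7. Its plain ratio in Huh7 was 2.14, although on the log2(RPKM + 1) scale the difference was 0.72, below 2-fold. NR1D2, which encodes the heme-binding clock repressor REV-ERBβ, stood at 8.29 and 8.22 RPKM in Huh1 and at 3.77 and 5.78 RPKM in Huh7. For all 3 genes the Huh1 pair was nearly level, and the CDCA8siRNA library was the higher in Huh7. The response in Huh7 exceeded that in Huh1 by 1.08 for NR6A1, 0.75 for RARB and 0.52 for NR1D2 (log2), with SDs from read sampling of 0.215, 0.181 and 0.123. For NR5A2 the response in Huh7 was 0.65 lower (SD from read sampling 0.117). None of these differences between the lines could be tested against the spread between cultures.

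Among the remaining lipid and xenobiotic receptors, the LXR genes lay on opposite sides of their controls without passing the test. NR1H2 stood at 28.2 and 31.3 RPKM in Huh1 and at 13.2 and 17.7 RPKM in Huh7 (log2 fold change 0.27, limma adjusted p = 0.142). NR1H3, which encodes LXRα, stood at 14.1 and 9.57 RPKM in Huh1 and at 9.68 and 9.11 RPKM in Huh7 (log2 fold change -0.30, limma adjusted p = 0.176). PPARA, the receptor behind fasting fatty acid oxidation, stood at 9.35 and 10.2 RPKM in Huh1 and at 2.96 and 2.97 RPKM in Huh7, and the broadly expressed PPARD at 3.76 and 3.58 RPKM and at 5.36 and 4.71 RPKM. Both PPARA and PPARD therefore stayed close to their controls while PPARG rose. The xenobiotic receptor genes were also close to their controls. NR1I3, which encodes CAR, stood at 8.01 and 7.74 RPKM in Huh1 and at 4.16 and 4.01 RPKM in Huh7. NR1I2, which encodes PXR, stood at 3.43 and 3.92 RPKM in Huh1 and was listed at 0 in both Huh7 libraries, where 3 reads would correspond to 0.0897 and 0.0892 RPKM.

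The partners and the thyroid hormone and retinoid receptors showed no call in the knockdown test. RXRB stood at 10.8 and 10.47 RPKM in Huh1 and at 10.2 and 11.5 RPKM in Huh7. RARA stood at 6.52 and 8.01 RPKM in Huh1 and at 7.83 and 7.63 RPKM in Huh7, and RARG at 3.70 and 3.17 RPKM and at 1.12 and 0.962 RPKM. Both thyroid hormone receptor genes were higher with CDCA8siRNA in both lines without passing the test. THRA stood at 4.57 and 6.42 RPKM in Huh1 and at 5.01 and 6.21 RPKM in Huh7 (log2 fold change 0.34, limma adjusted p = 0.109), and THRB at 7.90 and 9.03 RPKM and at 2.61 and 4.18 RPKM (log2 fold change 0.35, limma adjusted p = 0.129). NR1D1, which encodes REV-ERBα, overlaps the end of THRA on the opposite strand, and reads there cannot be told apart with a library kit that does not mark strand. It stood at 2.78 and 2.16 RPKM in Huh1 and at 2.46 and 2.24 RPKM in Huh7.

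Most other orphan receptors lay near their controls. NR2F1, nearly absent from Huh1, stood at 12.3 and 17.5 RPKM in Huh7 with NCsiRNA and CDCA8siRNA. NR2C1 and NR2C2, the testicular receptors that pair with each other, stood at 12.5 and 11.2 RPKM and at 14.1 and 15.5 RPKM in Huh1, and at 11.6 and 10.1 RPKM and at 15.3 and 17.9 RPKM in Huh7. The COUP-family genes NR2F2 (7.48 and 8.29 RPKM in Huh1, 8.40 and 7.34 RPKM in Huh7) and NR2F6 (25.5 and 26.0 RPKM, 41.7 and 36.3 RPKM) were slightly higher with CDCA8siRNA in Huh1 and lower in Huh7. ESRRA stood at 24.7 and 24.3 RPKM in Huh1 and at 8.64 and 8.70 RPKM in Huh7. HNF4G, a relative of the hepatocyte regulator HNF4A, stood at 2.91 and 3.54 RPKM in Huh1 and at 4.75 and 5.60 RPKM in Huh7 (log2 fold change 0.21, limma adjusted p = 0.334). NR4A2, the relative of NR4A1, was at 0.721 and 0.752 RPKM in Huh1 and at 0.979 and 1.71 RPKM in Huh7, below the level needed to enter the test in Huh1.

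The lines differed by more than the siRNAs did, and several receptor genes of hepatocyte metabolism were lower in Huh7 than in Huh1. The median size of the difference between the lines, regardless of sign, was 0.56 with NCsiRNA and 0.52 with CDCA8siRNA on the log2 scale, close to the 0.55 and 0.56 of all genes. With NCsiRNA, 8 of 29 genes were at least 2-fold lower in Huh7, where 10.2% of all 11896 genes were, and 1, NR2F1, was at least 2-fold higher, where 17% of all genes were (27.2% in either direction). The 8 were NR1H4, NR1H2, NR1I2, PPARA, RARB, RARG, THRB and ESRRA. With CDCA8siRNA, 7 of 30 genes were lower by that much (10.1% of all 12005 genes), with NR0B2 in place of NR1H2 and THRB, and NR2F1 was again the single higher gene (17.4%; 27.5% in either direction). The median difference between Huh7 and Huh1 over the receptor genes was -0.13 with NCsiRNA and -0.10 with CDCA8siRNA, against 0.14 for all genes with either siRNA. Of 29 genes compared under both siRNAs, 22 kept their sign, as did 90.6% of all 11753 genes, and 7 were at 2-fold in both, as were 23.7% of all genes.

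In the limma fit over all 4 libraries, with the siRNA as a covariate, 13 of 30 receptor genes were lower in Huh7 (28.7% of all 12148 genes) and 5 were higher (42.5% of all genes, 71.2% in either direction). With quantile normalization, which moves the median of all genes by -0.14 with NCsiRNA and -0.15 with CDCA8siRNA, the receptor genes split into 14 lower and 4 higher, while the split of all genes went from 3492 lower and 5162 higher to 4353 and 4358. The 2 siRNA conditions of a line served as its repeats, so this test is of these 2 lines only. A gene entered with 1 RPKM in any library. NR2F1 therefore entered only through Huh7, NR1I2 only through Huh1 and NR4A2 only through Huh7 with CDCA8siRNA. For these genes the direction was fixed by entry, and their p values cannot stand as evidence of it.

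NR1H4 was 6.30-fold higher in Huh1 than in Huh7 with NCsiRNA and 6.41-fold higher with CDCA8siRNA (log2 difference between Huh7 and Huh1 -2.43, SE 0.104, limma adjusted p = 1.68e-07). ESRRA was 2.86-fold and 2.80-fold higher in Huh1 (-1.40, limma adjusted p = 3.78e-06). PPARA was 3.16-fold and 3.44-fold higher in Huh1 (-1.44, SE 0.118, limma adjusted p = 8.11e-06). RARB was 7.63-fold higher in Huh1 with NCsiRNA and 3.50-fold with CDCA8siRNA (-1.88, SE 0.175, limma adjusted p = 1.85e-05). For each of these genes both Huh1 libraries lay above both Huh7 libraries. The summed hepatocyte markers given above, most of which is ALB in Huh1, were lower in Huh7 as well. AFP, TTR and FGB went the other way with either siRNA (with NCsiRNA, AFP stood at 24.8 RPKM in Huh1 and 865 RPKM in Huh7, TTR at 5.10 and 29.3 RPKM, and FGB at 178 and 195 RPKM). The part of these markers in the differences was not tested. NR1I2 was likewise higher in both Huh1 libraries, but no fold is given because it was listed at 0 in Huh7.

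In the other direction, NR2F1, which encodes the orphan repressor COUP-TFI of neural and mesenchymal cells, stood at 12.3 and 17.5 RPKM in Huh7 and at 0.0245 and 0.121 RPKM in Huh1, an estimated 1.23 and 5.93 reads (log2 difference 3.87, SE 0.144, limma adjusted p = 7.41e-08). No plain ratio is given on so few reads, and NR2F1 entered this test only through Huh7, which fixed its direction there. Its relatives NR2F2 and NR2F6 differed little or less. NR2F6 was 1.64-fold and 1.39-fold higher in Huh7 (limma adjusted p = 0.00079), and for NR2F2 the sign changed between the siRNAs (log2 difference 0.15 with NCsiRNA, -0.15 with CDCA8siRNA). HNF4G, PPARD and NR5A2 were the other genes higher in Huh7, by 0.55, 0.37 and 0.46 on the log2 scale (limma adjusted p = 0.00365, 0.0247 and 0.0227). The calls of PPARD and NR5A2 were lost without the covariate (limma adjusted p = 0.0633 and 0.210), that of NR5A2 also without the trend (limma adjusted p = 0.0528), and that of PPARD also with quantile normalization (limma adjusted p = 0.360). The stromal gene COL1A1, as given above, was high in the same line as NR2F1. The other stromal marker looked at, ACTA2, stood at only 0.720 and 1.06 RPKM in Huh7 and at 0.0196 and 0 RPKM in Huh1. The part of these markers in the NR2F1 difference was not tested.

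NR3C1, RXRA, NR1I3, NR1D2, THRB, RARG, NR1H2 and NR0B2 were the remaining genes lower in Huh7. The log2 differences ran from -0.51 for NR3C1 (limma adjusted p = 0.00142) to -1.13 for THRB (limma adjusted p = 7.28e-05). For NR0B2 (-1.11, limma adjusted p = 0.0242) the lines differed by -2.14 with CDCA8siRNA and by -0.09 with NCsiRNA, and its call was lost without the covariate (limma adjusted p = 0.128) and without the trend (limma adjusted p = 0.0638). NR1H3 (-0.28, limma adjusted p = 0.0772), NR6A1 (0.23, limma adjusted p = 0.360) and NR4A2 (0.42, limma adjusted p = 0.0687) did not pass the test. NR1H3 passed with quantile normalization (limma adjusted p = 0.00877) and with upper-quartile scaling (limma adjusted p = 0.0476), and NR4A2 without the trend (limma adjusted p = 0.0354) and with a pseudocount of 0.1 RPKM (limma adjusted p = 0.0473). NR4A1, PPARG, THRA, RARA, RXRB, NR2F2, NR2C1, NR2C2 and NR1D1 differed between the lines by at most 0.15 on the log2 scale in either direction in this fit. Of these, PPARG, RXRB and THRA changed sign under both other scalings, and NR4A1 and RARA under quantile normalization. When genes of low level were kept in the fit, HNF4G, NR2F6, NR5A2, PPARD, NR0B2, NR1D2, RARB, RXRA and THRB lost their calls between the lines (limma adjusted p from 0.0556 to 0.392).

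**Figure D3:**
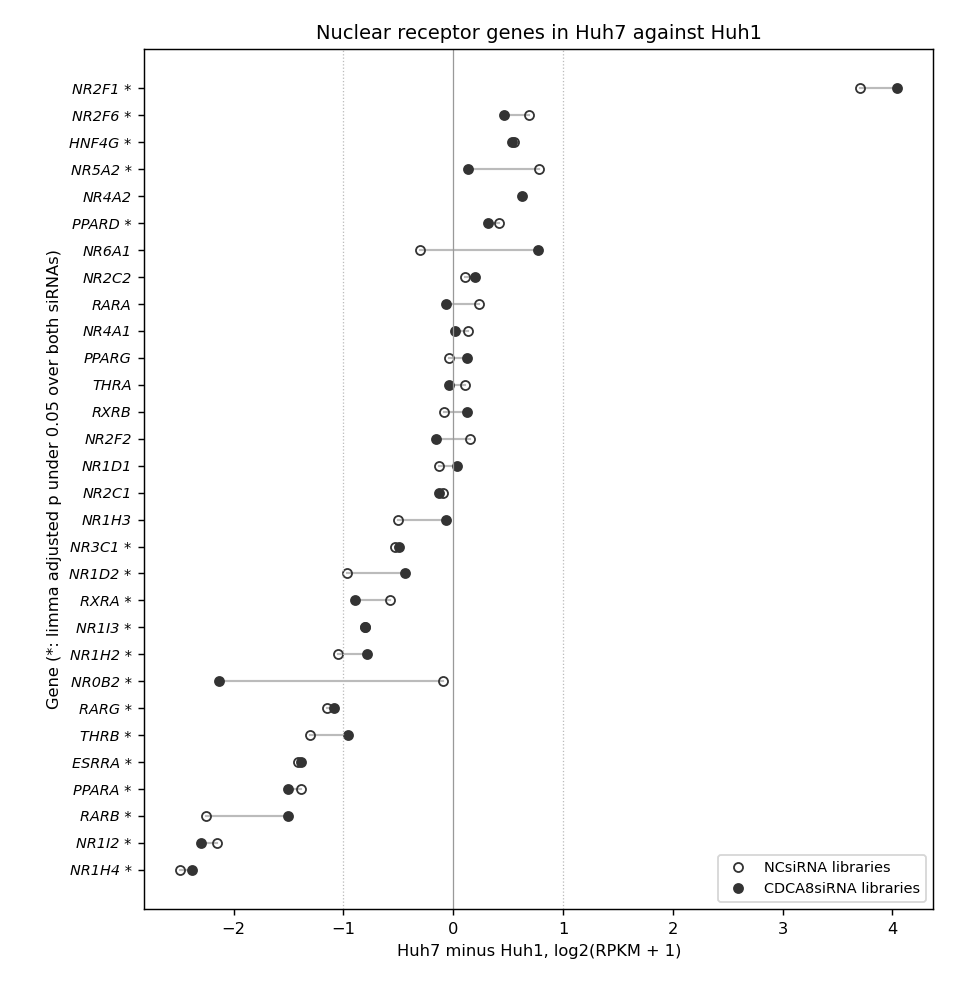
Difference in log2(RPKM + 1) between Huh7 and Huh1 for the 30 expressed nuclear receptor genes with NCsiRNA (open) and CDCA8siRNA (filled), joined by a line per gene, with dotted lines at 2-fold and an asterisk for a limma adjusted p under 0.05. NR2F1 stands alone at 3.70 and 4.04, NR1H4 lies at -2.49 and -2.38, and NR0B2 moves from -0.09 to -2.14.

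The proteins that work with nuclear receptors were described from lists made by function. Of 11 coactivators tested, 0 passed the limma test over both lines and 1 had an unadjusted p under 0.05, as did 2694 of all 10357 genes. The largest difference among them was that of NCOA3 (26.4 and 34.3 RPKM in Huh1, 10.9 and 13.3 RPKM in Huh7, log2 fold change 0.31, limma adjusted p = 0.0823). Of 8 corepressors, LCOR, which docks on ligand-bound receptors, rose by 0.61 (limma adjusted p = 0.00962), and HDAC3, the deacetylase of the NCOR complex, fell by 0.55 (limma adjusted p = 0.0116). Of 9 chaperones of the steroid receptors, 2 fell. FKBP4, the immunophilin that carries the glucocorticoid receptor along microtubules, stood at 54.2 and 19.6 RPKM in Huh1 and at 54.5 and 8.32 RPKM in Huh7 (log2 fold change -2.00, limma adjusted p = 0.00129), past 2-fold in both lines. HSP90AB1, a constitutive HSP90, stood at 935 and 818 RPKM and at 843 and 679 RPKM (log2 fold change -0.25, limma adjusted p = 0.0450). NR3C1, the single steroid receptor gene expressed here, did not pass the test.

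Classical target genes of the receptors showed few calls. Of 3 FXR targets tested, the enterokine gene FGF19 had a log2 fold change of 1.13 (limma adjusted p = 0.00577), with 0.210 and 1.06 RPKM in Huh1 and 8.21 and 24.7 RPKM in Huh7. ABCB4 and FGFR4 were not called (limma adjusted p = 0.472 and 0.857). In Huh1 FGF19 reached 1 RPKM only with CDCA8siRNA, so that a higher value there was needed for entry into the test. The call of FGF19 therefore cannot stand as evidence of a rise over both lines, and its higher value in Huh7 rests on 1 library per condition. Other FXR-linked genes, among them CYP7A1 and SLC10A1, were below 1 RPKM in all libraries. With CDCA8siRNA, FGF19 was higher in both lines, and the FXR target NR0B2 was higher in Huh1 and lower in Huh7. The part of NR1H4 in these differences was not tested. Among 7 LXR, 4 PXR and CAR, and 10 PPAR targets limma called 0, with 1, 1 and 3 genes at an unadjusted p under 0.05. PDK4, a PPAR target that restrains glucose oxidation, stood at 3.41 and 4.53 RPKM in Huh1 and at 0.399 and 1.06 RPKM in Huh7 (limma adjusted p = 0.0940). In Huh7 PDK4 reached 1 RPKM only with CDCA8siRNA, so that a higher value there was needed for entry into the test. The same held for CYP3A5, a target of PXR and CAR, at 0.787 and 1.24 RPKM in Huh7. FABP1 stood at 221 and 219 RPKM in Huh1 and at 42.7 and 23.9 RPKM in Huh7 (limma adjusted p = 0.126).

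Of 3 retinoic acid targets tested, TGM2 fell by 0.54 (limma adjusted p = 0.0411), and CYP26B1, which degrades retinoic acid, stood at 4.24 and 8.67 RPKM in Huh1 and at 18.1 and 18.6 RPKM in Huh7 (limma adjusted p = 0.132). Of 5 glucocorticoid receptor targets, TSC22D3, also known as GILZ, had a log2 fold change of 0.51 (limma adjusted p = 0.0296), with 0.880 and 1.79 RPKM in Huh1 and 12.6 and 17.7 RPKM in Huh7. FKBP5 was level (limma adjusted p = 0.955). In Huh1 TSC22D3 reached 1 RPKM only with CDCA8siRNA, and it entered the test through that library. The call of TSC22D3 therefore cannot stand as evidence of a rise over both lines, and its higher value in Huh7 rests on 1 library per condition. Of 5 estrogen receptor targets, PDZK1 fell by 0.55 (limma adjusted p = 0.0130). TFF1 had a listed 0 and 1.23 RPKM in Huh1 and 0.4999 and 1.99 RPKM in Huh7, with the estrogen receptor genes themselves near 0. In both lines TFF1 reached 1 RPKM only with CDCA8siRNA, so that a higher value there was needed for entry into the test. Its call (limma adjusted p = 0.00589) therefore cannot stand as evidence of a rise. Of 12 clock genes, NFIL3, the repressor at the D-box elements of the clock, fell by 0.81 (limma adjusted p = 0.00422), and NPAS2, the partner of ARNTL, rose by 0.43 (limma adjusted p = 0.0367). The thyroid hormone list had 1 gene in the test, CPT1A (limma adjusted p = 0.135), and the vitamin D list had none. These calls stand against the same 10.2% of all genes, and like those of the receptor genes they were lost when the cell line was left out of the fit, where 0 genes of any kind were called.

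**Figure D4:**
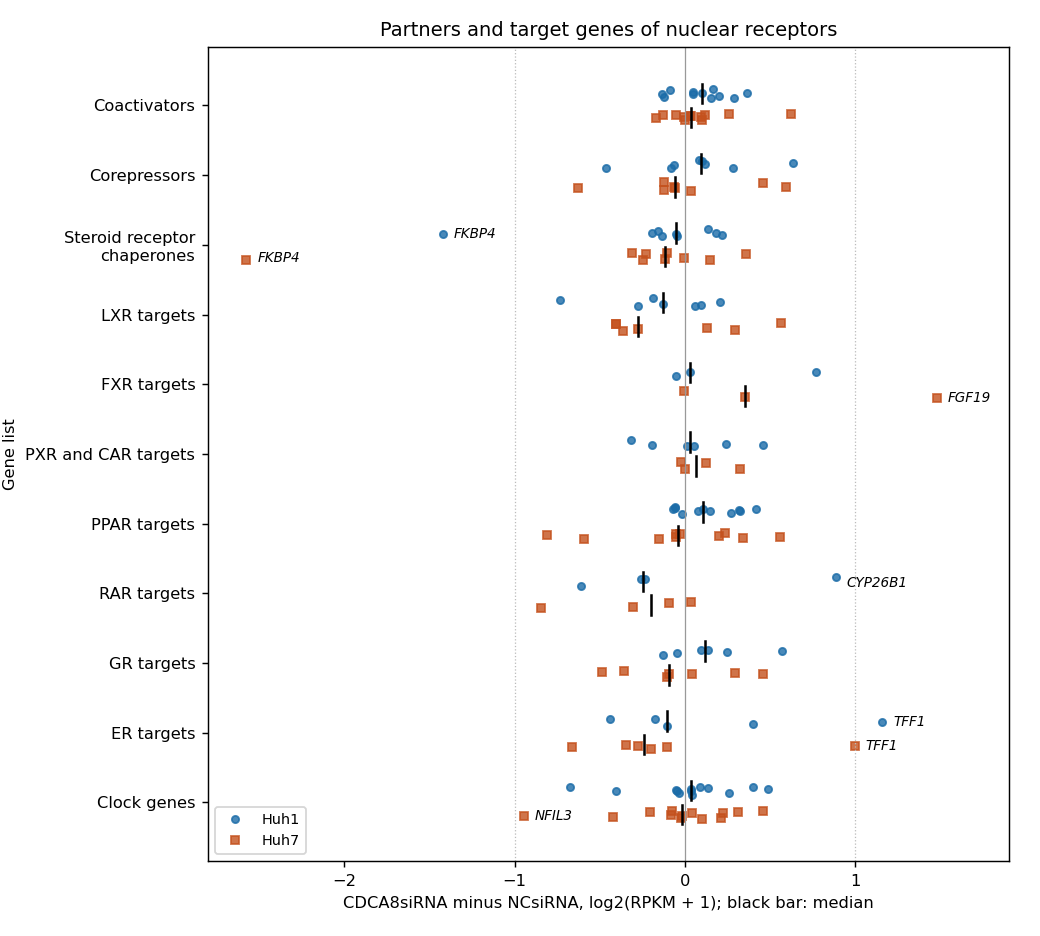
Difference in log2(RPKM + 1) between CDCA8siRNA and NCsiRNA for genes of partner and target lists, 1 point per gene (circles Huh1, squares Huh7), black bars for the median of each list and line, dotted lines at 2-fold, and names for genes at or near 2-fold. FKBP4 lies at -1.42 and -2.57 and FGF19 at 1.48 in Huh7, while the medians of the lists drawn, which leave out the vitamin D and thyroid hormone lists, lie between -0.28 and 0.35.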

How the data were processed

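TruSeq RNA libraries were made from Huh1 and Huh7 cells, 4 in all. The submitters' processing notes name CASAVA 1.8.2, TopHat2 2.0.9 and the build hg19, while the counter and annotation are not given in the sources used here. The authors deposited 1 value per gene and library, deduced from its behaviour to be RPKM, as low values multiplied by GENCODE release 29 lengths fell near whole multiples of 1 read. Within a tolerance of 0.05, 36.8% to 40.4% of low values came out whole, so most did not. The value of 1 read was itself fitted to these values. Read numbers and the SD from read sampling are therefore estimates, hold no variation between cultures and were used in no test.

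Fold changes were differences of log2(RPKM + 1), a scale that understates changes of low genes, over genes that reached 1 RPKM in a library compared, called at 2-fold and without a test for 1 library against 1. limma 3.58.1 (R 4.3.3; lmFit, eBayes with trend) was fitted to all genes with cell line and siRNA as factors, with Benjamini-Hochberg adjustment at 0.05, and was checked on simulated data, where the false share of its calls exceeded that threshold. The resampling-based ANOVA of the study was not repeated. Every receptor gene with at least 1 RPKM was named, and of each partner or target list the genes past 2-fold in either line and up to 4 others with the largest mean change were eligible. CYP7A1 and SLC10A1 were named after their values were seen. The receptor genes, the lists and the tests were chosen with earlier results of these data known. Alternatives were other pseudocounts, filters and scalings, and limma without the trend or the covariate.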

Additional observations from a re-analysis of the deposited data

Results flagged for a closer look

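In 9 nuclear receptor genes the difference between CDCA8siRNA and NCsiRNA had opposite signs in Huh1 and Huh7. With 1 library per condition, none of these differences between the lines was tested. The log2 fold change in Huh7 minus that in Huh1 was -2.04 for NR0B2 (0.50 in Huh1, -1.55 in Huh7), 1.08 for NR6A1, 0.75 for RARB and 0.52 for NR1D2, each more than 4 SDs of read sampling from 0. In Huh1 alone NR6A1, RARB and NR1D2 stood at -0.00225, -0.0267 and -0.0116. These lie within their read-sampling SDs of 0.152, 0.0919 and 0.0758, so the sign in Huh1 is not settled for these genes. It was -0.30 for NR2F2, -0.23 for NR2F6, -0.30 for RARA, 0.21 for RXRB and 0.0315 for ESRRA, each less than 3 such SDs from 0. Opposite signs were found for 30.6% of all 10357 genes measured in both lines.

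Of the partner and target genes named, 4 also had opposite signs, again untested. The difference between the lines was 0.86 for the LXR target ABCA1, which stood at 3.998 and 2.01 RPKM in Huh1 and at 17.3 and 19.0 RPKM in Huh7, with NCsiRNA and CDCA8siRNA respectively. It was -0.74 for CCND1, -0.60 for DUSP1 and -0.24 for FKBP5.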

How the results depend on the processing

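No replicate could be left out, with 1 library per condition. The limma fit of the knockdown paired the siRNAs within each cell line, and leaving out the cell line gives the unpaired fit. By replicate number, no paired analysis was possible because each condition holds a single library. Of the values for single genes, 904 moved by less than the read-sampling SD or kept their call, and 108 moved by more. A further 9 reversed, 7 gained a call and 21 lost it. Fold changes without a test counted as reversed only from 2-fold, so smaller ones that changed sign are among the 904 or the 108. Of the counts and summary values, 125 stayed within 1.5 times and 29 did not. Depth limits NR1I2 and NR2F1, which rest on at most 5.93 reads in the line where they are low, and NR0B2 in Huh7.

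In the knockdown test over both lines, limma called 0 genes higher and 0 lower without the filter and without the covariate, for all genes as for the receptor genes. Without the filter 18398 genes were tested. All genes lower numbered 267 without the trend and 750 with quantile normalization. Of the receptor genes, 1 was called higher with a filter at 5 RPKM, which left out NR4A1, and 3 were called lower with quantile normalization. Within Huh1, all genes at 2-fold numbered 130 higher and 60 lower by the plain ratio, an alternative chosen after seeing the data, 107 and 57 with a pseudocount of 0.1 RPKM, and 22 higher with quantile normalization. Within Huh7 they numbered 289 and 168 by the plain ratio and 269 and 153 with the pseudocount of 0.1 RPKM, and both settings put 2 receptor genes, NR6A1 and RARB, at 2-fold higher.

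Between the lines, limma without the filter called 3314 genes higher and 2119 lower in Huh7, and receptor genes higher in Huh7 numbered 1 without the filter and 3 without the covariate. With CDCA8siRNA, 2 receptor genes were at least 2-fold higher by the plain ratio and with the pseudocount of 0.1 RPKM. The reversed values, none of them called, were -0.00878 for PPARA in the knockdown test and, between the lines, -0.20 for NR4A1, -0.0438 for PPARG, -0.0559 for RARA, -0.0886 for RXRB and -0.16 for THRA with quantile normalization, and -0.00953 for PPARG, -0.0269 for RXRB and -0.00990 for THRA with scaling to the upper quartile. The cause was not tested.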
